A study of Mus musculus with 6 samples.

Results

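The 10 genes described here, C1qa, C1qb, C1qc, Tyrobp, Trem2, Lyz2, Csf1r, Cx3cr1, P2ry12 and Aif1, are well-known marker genes of microglia and macrophages. They were chosen by name, with earlier results of these data known. All 10 were found among the 22048 genes of the RNA-Seq table. Of the 10 genes, 6 were higher in every HE sample than in every NC sample, namely the 3 C1q chains, Tyrobp, Trem2 and Lyz2, while the groups overlapped for Csf1r, Cx3cr1, P2ry12 and Aif1. With limma on all 6 samples none of the 10 genes passed the test adjusted over all genes, and the authors' count test, DESeq2, was not run here.

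The samples were neurospheres, which are floating clusters of neural stem/progenitor cells (NSC/NPCs), grown from the dissociated hypothalamus of male C57BL/6 fetuses taken at E14.5 and harvested at first passage. HE stands for prenatal high estradiol exposure. The dams of the 3 HE samples were dosed by gavage with estradiol valerate, 100 μg/kg/d, over E5.5 to E11.5, and the dams of the 3 NC (control) samples the corn oil solvent alone over the same days, although the labels call NC untreated. Each sample held cells pooled from 2 mice, and all 6 shared the same culture medium with the growth factors EGF and bFGF. No cell sort is described, so other cells of the dissociated tissue could be carried into culture. P-values therefore measure the spread between 3 pooled samples per group and no more.

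Microglia are the resident macrophages of the brain. They arise from precursors of the yolk sac that enter the neural tube early in development, and they depend on signals through the receptor Csf1r. They clear dying cells and mark synapses with complement. C1q, the first recognition molecule of the classical complement pathway, is assembled from the chains encoded by C1qa, C1qb and C1qc, and in the brain it is made mainly by microglia. None of the 10 genes is known as a marker of neural progenitors.

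Reads assigned to genes numbered 16078675 to 19137059 per sample. HE3 stood apart from the other samples over all tested genes, with a Euclidean distance of 77.7 to 107 to them on the log2 scale, against 38.7 to 67.6 among the other 5. Values without HE3 are therefore given beside the 10 genes and the gene lists. RPKM scales the reads of a gene by its length and by the total of the sample, and allows levels of different genes to be compared. The 10 genes were sparse in these cultures, and their highest value in any NC sample was 1.38 RPKM, for Lyz2 in NC3. By comparison, the progenitor gene Sox2 was at 97.3 to 209 RPKM in the 6 samples and Nes at 154 to 247 RPKM, so the progenitor label had its defining markers. In bulk RNA, a smaller number of cells of a type cannot be told apart from less RNA per cell.

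The region before the start of some of these genes is printed here because PU.1, encoded by Spi1, is the best known activator of macrophage genes and binds a purine-rich DNA element, the PU box. RefSeq windows of GRCm38.p6 were searched for GAGGAA over 250 bases before the start on both strands, where the opposite strand reads TTCCTC. Of the 10 genes, 7 had a window, and 4 of these 7 held the letters at least once, namely C1qb, C1qc, Trem2 and Aif1. Of all 32851 windows 23.3% held them. P2ry12, Cx3cr1 and Lyz2 had no match in the window. The 3 stretches below belong to genes that were higher in every HE sample. They run 5′ to 3′ on the strand of the gene, and capitals mark the match, which begins 30 bases before the start that the RefSeq window uses for C1qb (chr4:136886201-136886280, minus strand), 193 bases before that of C1qc (chr4:136893052-136893157, minus strand) and 40 bases before that of Trem2 (chr17:48346311-48346400, plus strand). For C1qc this start lies inside the annotated span of the gene.
C1qb: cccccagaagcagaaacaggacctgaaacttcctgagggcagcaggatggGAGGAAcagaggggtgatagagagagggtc
C1qc: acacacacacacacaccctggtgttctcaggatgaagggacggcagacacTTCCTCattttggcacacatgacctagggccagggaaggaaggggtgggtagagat
Trem2: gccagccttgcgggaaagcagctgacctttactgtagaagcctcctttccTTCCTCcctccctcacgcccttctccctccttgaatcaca
A match is a description of the letters and no proof of binding. Aif1, which also held a match, had overlapping groups, and Lyz2, which held none, had the most reads of the 10 genes in HE.

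The genes of the C1q chains lie side by side on chromosome 4, C1qb at chr4:136880126-136886200, C1qc at chr4:136889801-136892936 and C1qa at chr4:136895916-136898844 (GRCm38.p6, all protein coding). C1qa had 0, 0 and 1 reads in NC1, NC2 and NC3 and 18, 5 and 53 reads in HE1, HE2 and HE3. C1qb had 2, 0 and 0 reads in NC and 22, 12 and 35 reads in HE. C1qc had 1, 0 and 1 reads in NC and 25, 6 and 32 reads in HE. In each of the chains the groups did not overlap, HE3 was the highest sample and HE2 the lowest of HE. The 3 chains together held 3, 0 and 2 reads in NC against 65, 23 and 120 reads in HE, a ratio of 44.6 in RPM, which scales reads by the total of the sample but not by gene length (95% interval 18.8 to 139). This interval and all that follow cover counting error only, and the HE samples differed from each other by more than that. For example, C1qa in HE3 was 12.6 times that in HE2, with a counting interval of 5.06 to 40.3.

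The level of C1qa was 0.0169 ± 0.0293 RPKM in NC against 1.46 ± 1.52 RPKM in HE (mean ± SD of 3 samples, as for all such values). C1qb stood at 0.0326 ± 0.0565 and 1.24 ± 0.717 RPKM, and C1qc at 0.0183 ± 0.0159 and 0.639 ± 0.44 RPKM. The levels of C1qa and C1qb in HE lay within each other's spread. Differences were tested with limma on log2(RPKM + 0.1), a scale that understates the change of genes at low levels. For C1qb the log2 fold change was 3.26 (SE, the standard error, 0.47, adjusted p = 0.195 in limma), and 2.86 without HE3. C1qb reached the filter on low read counts only through its HE samples. C1qa and C1qc were under the filter and have values from the fit without it, a log2 fold change of 3.22 (SE 0.73, adjusted p = 0.252 in limma) and of 2.41 (SE 0.52, adjusted p = 0.252 in limma). Without HE3 these were 2.42 and 1.98. The ratio of pooled RPM, HE over NC, was 81.4 for C1qa (95% interval 14.2 to 3258), 37.0 for C1qb (9.85 to 311) and 33.8 for C1qc (8.96 to 285), and rested on 1 or 2 reads in all of NC. Without HE3 it was 35.4, 26.1 and 23.8.

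Tyrobp and Trem2 encode partners at the cell surface. Trem2 is a receptor for lipids and cell debris, and Tyrobp, also called DAP12, is the adaptor that carries its signal into the cell. Tyrobp (chr7:30413782-30417582) had 2, 0 and 1 reads in NC against 5, 6 and 26 reads in HE. Trem2 (chr17:48346401-48352276) had 0, 0 and 3 reads in NC and 8, 4 and 19 reads in HE. Both were higher in every HE sample than in every NC sample, but the lowest HE samples lay only a few reads above the highest NC sample. Tyrobp stood at 0.0796 ± 0.0799 RPKM in NC against 1.10 ± 1.14 RPKM in HE, with a log2 fold change of 2.44 (SE 0.66, adjusted p = 0.252 in limma without the filter). Trem2 stood at 0.0107 ± 0.0185 and 0.124 ± 0.102 RPKM, with a log2 fold change of 0.93 (SE 0.33, adjusted p = 0.270 in limma without the filter). The ratio of pooled RPM was 13.2 for Tyrobp (95% interval 4.18 to 67.0) and 11.1 for Trem2 (3.45 to 56.6). These ratios depended on HE3, without which they were 5.64 (1.49 to 31.5) and 6.15 (1.66 to 34.0). On the scale of log2(RPM) in limma's voom, Trem2 had a log2 fold change of 3.32, more than its 0.93 on log2(RPKM + 0.1), where its level lies near the added 0.1.

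Lyz2 encodes lysozyme M, a bactericidal enzyme of macrophages, monocytes and granulocytes, and lies at chr10:117277541-117282272. It had the most reads of the 10 genes, with 18, 6 and 33 reads in NC1, NC2 and NC3 and 214, 72 and 518 reads in HE1, HE2 and HE3. These were 0.758, 0.248 and 1.38 RPKM in NC against 9.44, 2.98 and 25.4 RPKM in HE. All HE samples lay above all NC samples, yet HE3 exceeded HE2 by 8.53 times (95% interval 6.66 to 11.1). The means were 0.794 ± 0.565 RPKM in NC against 12.6 ± 11.6 RPKM in HE, with a log2 fold change of 3.58 (SE 0.81, adjusted p = 0.195 in limma), and 2.83 without HE3. The ratio of pooled RPM was 15.1 (11.55 to 20.1), and 7.71 (5.79 to 10.4) without HE3. The near-identical paralog Lyz1, which lies beside it at chr10:117287795-117292868 and could share reads with it, had at most 2 reads in any sample. Lyz2 alone held 66.0% of the reads of the 10 genes in HE.

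**Figure D1:**
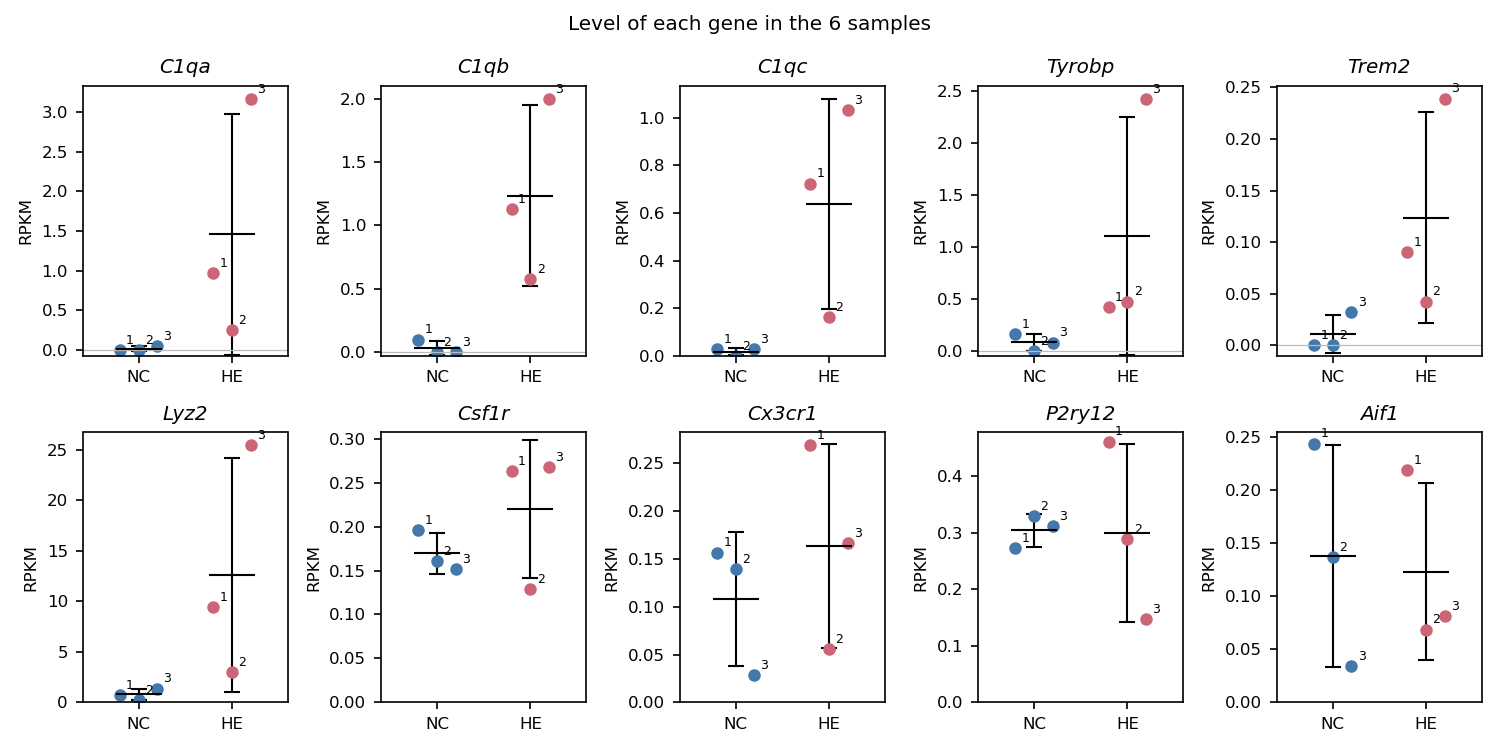
Level in RPKM (vertical axis, scaled to each gene) of the 10 genes in the 3 NC samples (blue) and 3 HE samples (red), numbered by replicate, with the mean and SD as bars; a lower SD bar can extend below 0. For C1qa, C1qb, C1qc, Tyrobp, Trem2 and Lyz2 all HE points lie above all NC points and HE3 is the highest, while in the other 4 panels the groups overlap.

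Csf1r, Cx3cr1 and P2ry12 are surface receptors of microglia in this set, as is Trem2 above. Csf1r binds the growth factors CSF1 and IL-34, on which microglia depend for survival. It lies on chromosome 18 and had 18, 15 and 14 reads in NC and 23, 12 and 21 reads in HE, which is 0.169 ± 0.0238 and 0.220 ± 0.0788 RPKM. Its groups overlapped, with HE2 below all NC samples. The log2 fold change was 0.22 (SE 0.27, adjusted p = 0.631 in limma), or 0.10 without HE3, and the ratio of pooled RPM was 1.28 (95% interval 0.851 to 1.92). Cx3cr1, the receptor for the neuronal chemokine fractalkine, at chr9:120048683-120068296, had 11, 10 and 2 reads in NC and 18, 4 and 10 reads in HE. NC3 was the lowest of the 6 and HE1 the highest, and the log2 fold change was 0.32 (SE 0.41, adjusted p = 0.653 in limma), or 0.27 without HE3, with a ratio of 1.49 (0.846 to 2.67). The intervals of Csf1r and Cx3cr1 lay below the lower bounds of the C1q chains, Tyrobp, Trem2 and Lyz2, which no longer held for Tyrobp and Trem2 without HE3.

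P2ry12, the purine receptor through which microglia sense ATP and ADP, had 13, 16 and 15 reads in NC and 21, 14 and 6 reads in HE. HE1 was above all NC samples and HE3, which was highest for the C1q chains and Lyz2, was the lowest of all 6. The log2 fold change was -0.10 (SE 0.32, adjusted p = 0.873 in limma), and 0.21 without HE3. P2ry12 (chr3:59216271-59262985) lies within the span of Med12l (chr3:59005419-59318446), a gene with 221 to 461 reads per sample, and where counting does not use strand the reads of overlapping genes can be mixed. Med12l too was lowest in HE3, with 221 reads against 382 to 461 in the other samples. In HE1, where P2ry12 was highest, Med12l was at 1.67 RPKM against 1.76 to 1.91 RPKM in NC. The part of Med12l reads in the values of P2ry12 was not tested. Aif1, which encodes the calcium-binding protein IBA1 that is widely stained to show microglia, lies at chr17:35170986-35176083. It had 7, 4 and 1 reads in NC and 6, 2 and 2 reads in HE, with a log2 fold change of -0.06 (SE 0.40, adjusted p = 0.956 in limma without the filter), and 0.06 without HE3. The ratio of pooled RPM was 0.893 for Aif1 with an interval of 0.346 to 2.26, which is wide at this depth. It leaves out the spread between samples, so it does not mark which differences between the groups could be detected.

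**Figure D2:**
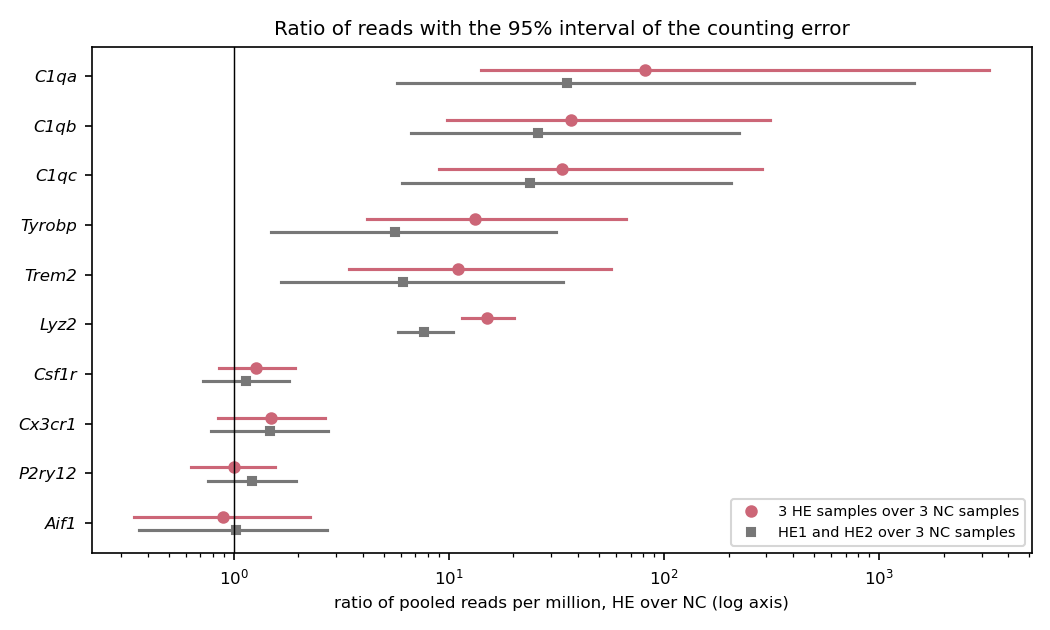
Ratio of pooled RPM, HE over NC (horizontal log axis), for each of the 10 genes with its 95% interval of counting error, for all 3 HE samples (red circles) and for HE1 and HE2 alone (grey squares), both over 3 NC samples. The intervals of C1qa, C1qb, C1qc, Tyrobp, Trem2 and Lyz2 lie above 1 with and without HE3, while those of Csf1r, Cx3cr1, P2ry12 and Aif1 include 1.

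Across the 10 genes, 6 had every HE sample above every NC sample, where 11.9% of the 19653 genes with at least 1 read did so and 13.5% had every HE sample below every NC sample. Among genes that passed the filter these shares were 14.8% and 17.9%. For each of the 6 genes the exact permutation test (two-sided, 20 assignments) gave p = 0.1, the smallest this design allows. Groups that do not overlap always give this p, so it adds nothing to the count. For the others the same exact permutation test gave p = 0.4 for Csf1r, 0.4 for Cx3cr1, 1 for P2ry12 and 0.9 for Aif1. In limma without the filter, 6 of the 10 had an unadjusted p under 0.05 and were higher in HE, against 6.96% of 19653 genes. With the adjustment over all genes 0 of the 10 genes were called at an adjusted p under 0.05 and a log2 fold change of 1, and over all genes 0% were called in limma, with 2858 of 13952 at an unadjusted p under 0.05 and 0 called by voom. Leaving a sample out can only add to this count and cannot remove a gene from it, so it is no test of these 6. No gene was added when any NC sample, HE1 or HE3 was left out. Without HE2 the number was 8, with Csf1r and Cx3cr1 added.

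The HE samples kept an order in most of these genes. HE3 was highest, HE1 next and HE2 lowest in 6 of the 10, namely the C1q chains, Trem2, Csf1r and Lyz2, and in Tyrobp HE3 was highest as well. Cx3cr1, P2ry12 and Aif1 were highest in HE1. Summed over the 10 genes, the level was 1.91, 1.01 and 2.09 RPKM in the NC samples and 14.0, 5.03 and 35.0 RPKM in the HE samples. The ratio of the group means of this sum was 10.8, and 5.69 without HE3. With Lyz2 left out it was 6.12. The 4 genes with overlapping groups together had 49, 45 and 32 reads in NC and 68, 32 and 39 reads in HE, a ratio of RPM of 1.18 (95% interval 0.922 to 1.52), against 17.0 (13.3 to 22.1) for the other 6. The genes were split by these same values, so the contrast between the ratios is built into the split and is no test.

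Other genes listed for these cell types were read next, some of which other cells express too. Of all 13952 tested genes, 8.68% were higher and 11.8% lower in HE at an unadjusted p under 0.05 in limma. Without HE3 these shares were 9.35% and 10.5%. The median log2 fold change of all tested genes was -0.06. A gene could reach the filter through 1 group alone, as C1qb, Cd163, Adgre1, Fcgr3 and Fli1 did through the HE samples and Prtn3 through NC, with at most 1 sample of the other group at the limit, so their place among the tested genes depended on the group where they were high. Each list is therefore also counted over all its genes with a read, where 6.96% of all genes were higher at an unadjusted p under 0.05. The share of all genes lower in that fit was not counted. Of 12 other microglia markers, 7 were tested, of which 1 was higher and 2 were lower at that level, with a median log2 fold change of -0.10. These counts were also 1 and 2 without HE3, and over all 12 genes 2 were higher and 3 lower. Tmem119, a surface protein used as a marker of microglia in the brain, was higher. It had 22, 20 and 21 reads in NC and 59, 53 and 58 reads in HE, and the cells that gave these reads were not tested. Its log2 fold change was 1.36 (SE 0.19, adjusted p = 0.195 in limma), and unlike the C1q chains it was nearly level among the HE samples. Sall1, a transcription factor of microglia that neural progenitors also express, was lower with a log2 fold change of -0.83, and Olfml3 with -1.17. Fcrls, a microglial Fc receptor-like gene, had 0, 3 and 0 reads in NC and 7, 4 and 16 reads in HE. The highest level in the list was that of Sparc, a gene that other brain cells express too, at 291 ± 51.9 RPKM in NC against 268 ± 12.5 RPKM in HE. The purine receptor P2ry13, whose gene neighbours P2ry12, had 7, 9 and 9 reads in NC and 3, 3 and 2 reads in HE, below NC in every sample.

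Of 10 genes of macrophages at the borders of the brain, 3 were tested and 1, Cd163, the scavenger receptor for haemoglobin, was higher at an unadjusted p under 0.05, with 5, 7 and 11 reads in NC and 22, 31 and 16 reads in HE (log2 fold change 0.94). Without HE3 these were 2, Cd163 and Dab2, and over all 10 genes 1 was higher and 0 lower. Mrc1, the mannose receptor, had 2 reads in each NC sample and 4, 3 and 7 reads in HE, and Dab2 had a log2 fold change of 0.46. Cbr2 held 455 reads in NC1 and at most 4 in any other sample, so the summed level of this list was highest in NC1.

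Of 18 phagocyte and activation genes 15 were tested, 2 were higher and 7 lower at an unadjusted p under 0.05, and the median log2 fold change was -0.48. Without HE3, 1 was higher (Adgre1) and 6 were lower, with Apoe and Axl no longer and Cd14 newly among them. Over all 18 genes with all samples, 3 were higher and 6 lower. Higher were Adgre1, which encodes the macrophage antigen F4/80, with 3, 0 and 7 reads in NC and 11, 11 and 24 reads in HE (log2 fold change 1.27), and Spp1, osteopontin, with a log2 fold change of 1.63 and overlapping groups. Ctss, cathepsin S, a lysosomal protease of antigen-presenting cells, was under the filter. It had 0, 0 and 5 reads in NC and 38, 10 and 66 reads in HE, with a log2 fold change of 3.25 in limma without the filter. Lower were Lgals3 with a log2 fold change of -1.51, Gpnmb with -1.31, Ctsb with -1.12, Cd68 with -0.93, Apoe with -0.86, Grn with -0.62 and Axl with -0.48. The highest levels were those of Apoe, the main lipid carrier of the brain and a product of glial cells and progenitors as well, at 3231 ± 701 RPKM in NC against 1870 ± 783 RPKM in HE, and of Ctsd, at 799 ± 106 and 643 ± 70.4 RPKM.

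Among 20 general leukocyte genes 6 were tested, 1 was higher and 1 lower at an unadjusted p under 0.05, and the median log2 fold change was 0.00. Without HE3 the counts were also 1 and 1, and over all 20 genes 4 were higher and 1 lower. Fcgr3, a receptor for antibody on macrophages, had 1, 1 and 2 reads in NC and 10, 16 and 29 reads in HE, with a log2 fold change of 2.23 (SE 0.38, adjusted p = 0.195 in limma). Cybb, the catalytic subunit of the phagocyte oxidase, had 0, 1 and 0 reads in NC and 8, 4 and 17 reads in HE. Ptprc, which encodes CD45, the marker of all leukocytes, had 0, 0 and 2 reads in NC and 10, 2 and 16 reads in HE, with HE2 no higher than NC3 in reads. Cyba, the partner of Cybb, was lower with a log2 fold change of -0.89, and Cyba and Coro1a had the highest levels of the list, at 24.0 ± 6.07 and 1.62 ± 0.333 RPKM in HE.

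**Figure D3:**
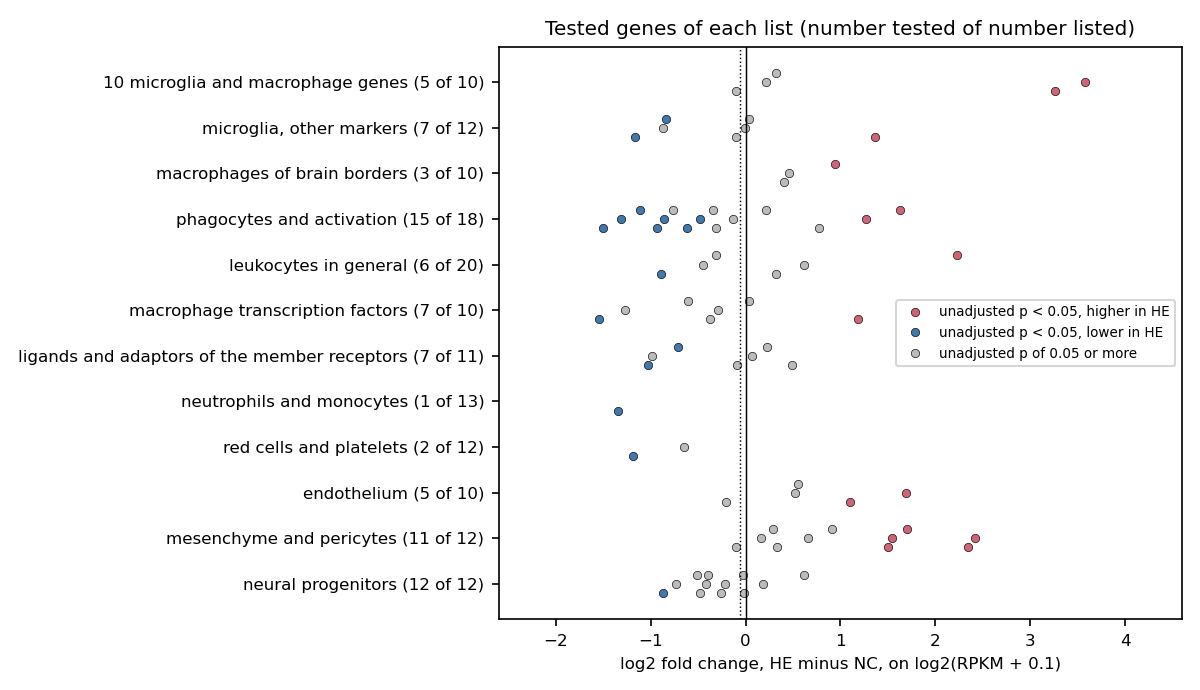
Log2 fold change, HE minus NC, on log2(RPKM + 0.1) (horizontal axis) of each tested gene of 12 lists (rows, with the number tested of the number listed), coloured by unadjusted p. C1qb at 3.26 and Lyz2 at 3.58 lie to the right of all other genes drawn, while the phagocyte list has its median at -0.48, left of the dotted line at the median of all tested genes. Genes under the filter are not drawn, among them Ctss, at 3.25 in the fit without it, and C1qb reached the filter only through HE.

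Of 10 transcription factors of the macrophage lineage 7 were tested, 1 was higher and 1 lower, with a median log2 fold change of -0.37. When HE3 was left out, 1 was higher and 2 were lower, Cebpb being the other. Over all 10 genes 3 were higher and 1 lower. Spi1, which encodes PU.1, had 0, 1 and 0 reads in NC and 1, 8 and 4 reads in HE and was under the filter. Fli1 was higher with a log2 fold change of 1.19, and Irf5 lower with -1.54. Cebpb and Cebpa, which are not restricted to macrophages, had the highest levels, at 65.5 ± 8.89 and 7.49 ± 0.484 RPKM in NC.

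The ligands of the microglial receptors were far more abundant than the receptors. Csf1, which encodes a ligand of Csf1r, was at 18.2, 18.6 and 10.1 RPKM in NC against 9.22, 8.76 and 9.50 RPKM in HE, below NC in every HE sample, with a log2 fold change of -0.71 (SE 0.24, adjusted p = 0.198 in limma). Il34, the other ligand of Csf1r, was at 4.71, 4.91 and 3.42 RPKM in NC against 2.05, 2.06 and 2.06 RPKM in HE, with a log2 fold change of -1.02 (SE 0.18, adjusted p = 0.195 in limma). Both ligands had lower values in every HE sample, while for Csf1r itself the groups overlapped. Cx3cl1, fractalkine, the ligand of Cx3cr1, was at 13.7, 20.8 and 15.5 RPKM in NC against 18.3, 22.6 and 30.1 RPKM in HE, with overlapping groups and a log2 fold change of 0.49. Of the 11 genes in this list, which also holds adaptors and other receptors, 10 were in the table and 7 were tested. At an unadjusted p under 0.05, 0 were higher and 2 lower, with and without HE3. Without the filter 0 of the 10 were higher and 2 lower.

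Markers of other cells were read beside these genes. Neutrophil and monocyte genes had 1 of 13 tested, Prtn3, which was lower with a log2 fold change of -1.34, and their summed level was 1.44 to 4.16 RPKM in NC against 0.634 to 0.926 RPKM in HE. The markers S100a8, S100a9, Ly6c2 and Ccr2 had 0 to 4 reads in each sample. Other genes of the list had more reads in NC. Ltf had 94 reads in NC1, the sample with the highest summed level, and 0 to 3 reads in each other sample. Camp had 7, 4 and 2 reads in NC and 1, 1 and 0 reads in HE. Plac8 was at 0.595 ± 0.608 RPKM in NC against 0.131 ± 0.0255 RPKM in HE. Lymphocyte and mast cell genes had 0 of 13 tested, with a summed level of 0.446 to 0.827 RPKM in NC against 0.471 to 0.803 RPKM in HE, and the highest of them were Cd79a and Cd4. Red cell and platelet genes had 2 of 12 tested, Itga2b with a log2 fold change of -1.19 and an unadjusted p under 0.05, and Alas2 with -0.65. Leaving out HE3 kept Prtn3 and Itga2b lower at that level, and 0 genes of these lists were higher without the filter. Lower without it were 3 neutrophil and monocyte genes, 1 lymphocyte and mast cell gene and 1 red cell and platelet gene. The haemoglobin genes Hba-a1 and Hbb-bs had 26 and 25 reads in HE3 and at most 1 in any other sample, so HE3, the sample highest for the C1q chains and Lyz2, also held haemoglobin reads. The part of haemoglobin reads or of blood cells in the values of the 10 genes was not tested.

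No endothelial or mesenchymal gene of the lists was called in limma with adjustment. Of 10 endothelial genes 5 were tested and 2 were higher at an unadjusted p under 0.05, with a median log2 fold change of 0.55. When HE3 was left out this was 3 genes, with Kdr added. The 2 were Cdh5, VE-cadherin, at 0.708, 0.341 and 0.755 RPKM in NC against 2.75, 1.66 and 1.95 RPKM in HE, and Esam, with a log2 fold change of 1.11. Plvap and Flt1 had the highest levels, and their log2 fold changes were 0.53 and -0.20. Over all 10 endothelial genes without the filter, 3 were higher and 0 lower at that level. Of 12 genes of mesenchyme and pericytes 11 were tested and 5 were higher, with a median log2 fold change of 0.92, namely Vtn with 2.42, Mgp with 2.35, Dcn with 1.70, Twist1 with 1.55 and Col3a1 with 1.504. Without HE3 Col1a1 and Col1a2 were higher as well, 7 in all. Over all 12 genes without the filter, 5 were higher and 0 lower. The summed level of this list was 34.5 to 87.5 RPKM in NC against 86.9 to 191 RPKM in HE, and within HE it was lowest in HE3, the sample where the C1q chains and Lyz2 were highest. Of 12 progenitor genes, all tested, 0 were higher and 1, Prom1, was lower, with a log2 fold change of -0.87, and the list's median was -0.33. Without HE3, 3 were lower, Sox2, Msi1 and Prom1. In the fit without the filter 0 were higher and 1 lower. Vim and Fabp7 had the highest levels of the progenitor list. The part of endothelial, mesenchymal and progenitor cells in the values of the 10 genes was not tested.

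**Figure D4:**
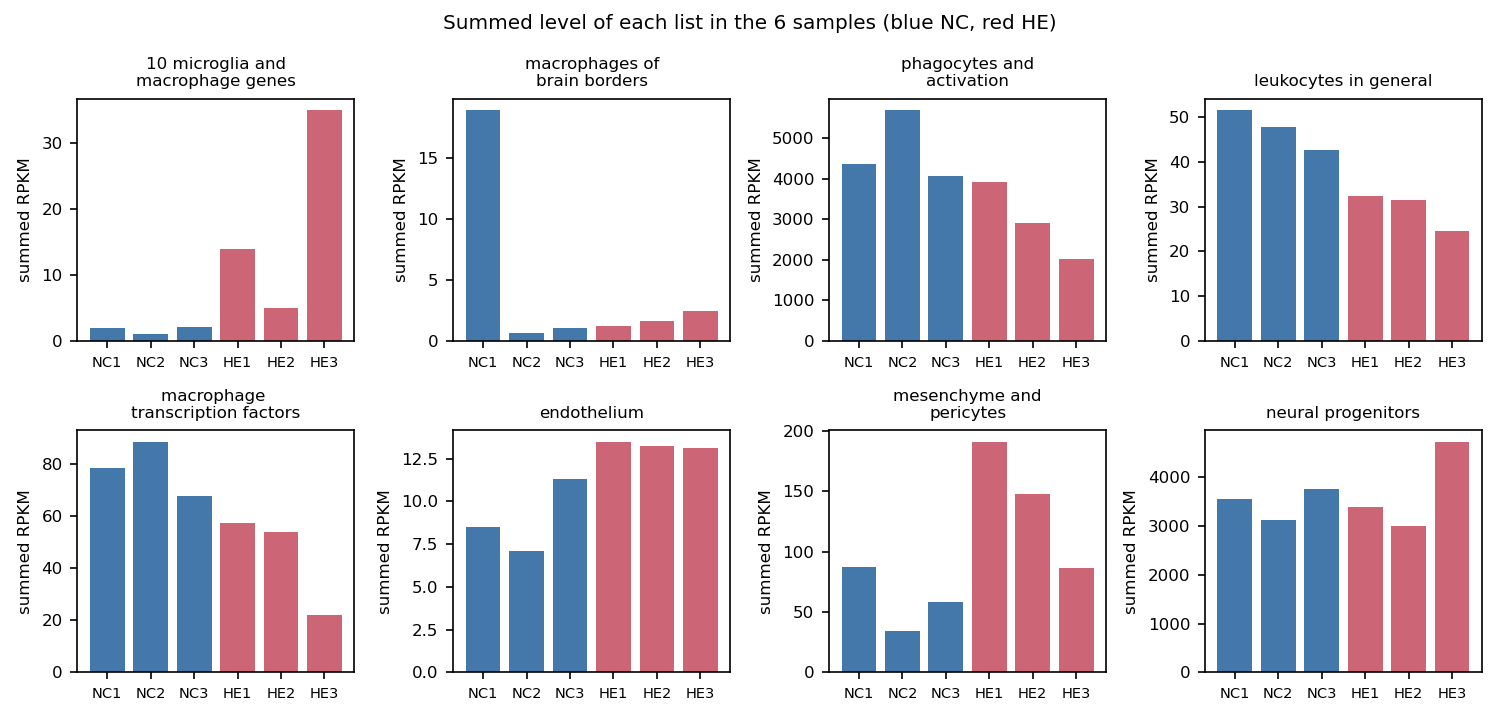
Summed RPKM (vertical axis from 0, scaled to each panel) of 8 gene lists in each of the 3 NC samples (blue) and 3 HE samples (red). The sum over the 10 microglia and macrophage genes runs from 1.01 to 2.09 RPKM in NC against 5.03 to 35.0 RPKM in HE, while the phagocyte, leukocyte and transcription factor sums, which are carried by Apoe, Cyba and Cebpb, are lower in every HE sample.

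Likeness was searched only among genes outside these lists that passed the filter. Of these, Fat2, Nnmt, Gabrg1, Itih2 and Wnt2 lay nearest to the mean profile of the 10 genes over the 6 samples. The measure was the root mean square difference between centred profiles of log2(RPM + 0.05), which was 0.30 for Fat2, 0.30 for Nnmt, 0.50 for Gabrg1, 0.53 for Itih2 and 0.56 for Wnt2. Fat2, a giant protocadherin, had 7, 5 and 7 reads in NC and 22, 19 and 37 reads in HE. Nnmt, nicotinamide N-methyltransferase, had 6, 3 and 4 reads in NC and 20, 13 and 19 reads in HE. Fat2 and Nnmt reached the filter only through their HE samples, so their likeness was partly set by the filter. Gabrg1, a subunit of the GABA-A receptor, had 21, 26 and 28 reads in NC and 81, 102 and 169 reads in HE. These rank by likeness over 6 samples that share their libraries, which is a description only.

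**Figure D5:**
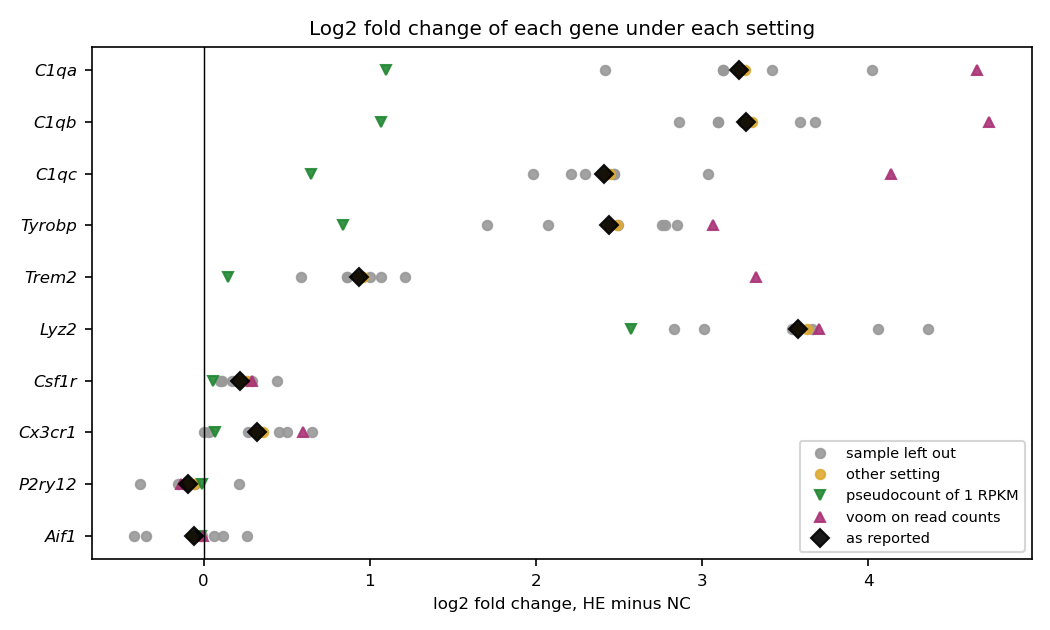
Log2 fold change, HE minus NC (horizontal axis), of each of the 10 genes as reported (black diamonds), with each sample left out in turn (grey), with a pseudocount of 1 RPKM (green), with voom on read counts (purple) and under the other settings (yellow). C1qa, C1qb, C1qc, Tyrobp, Trem2 and Lyz2 stay above 0 under every setting drawn, with C1qa between 1.10 and 4.66, while P2ry12 and Aif1 lie on both sides of 0.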

How the data were processed

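RNA was sequenced from 3 NC and 3 HE samples. The authors aligned their filtered reads to mouse (TopHat2, mm10 and CASAVA 1.7 per the submitters' processing notes) and counted reads per gene. The counting tool, the annotation and the use of strand are not given in the sources used here. The deposited table holds read counts and RPKM, which the authors computed from count, gene length and total (checked to within 4.99e-07). The read counts carry commas between digits, which were removed before the counts were used for the filter, the ratios and voom. The unit check did not take these columns as counts, so RPKM was used for the main test. The count test DESeq2, which the authors used, was not run.

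Differences were tested with limma 3.58.1 (R 4.3.3) with a trend on log2(RPKM + 0.1), group as sole term and Benjamini-Hochberg adjustment over the 13952 genes with the rate of 10 reads at the median library in at least 3 samples and 15 reads in total. Genes under this filter have values from the same fit over 19653 genes with a read. Single values had an exact permutation test. Intervals of read ratios are exact binomial (Clopper-Pearson). Fits were tested on simulated data. The 10 genes and the lists were chosen with earlier results of these data known. Named are all 10 genes, from each list those with an unadjusted p under 0.05 and the 2 with the highest mean RPKM, and the 5 genes most alike. The following were named after their values were seen: Fcrls, P2ry13, Mrc1, Ctss, Cybb, Ptprc, Spi1, Sox2, Nes, Hba-a1, Hbb-bs, S100a8, S100a9, Ly6c2, Ccr2, Ltf and Camp. Settings tried were a pseudocount of 1, median-of-ratios scaling, stricter and no filter, voom, the replicate block and each sample left out. Coordinates and promoter windows are from RefSeq, GRCm38.p6. The result for 1 listed gene is not reported here.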

Additional observations from a re-analysis of the deposited data

How the results depend on the processing

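The threshold here is that of a call, an adjusted p under 0.05 with a log2 fold change of at least 1. No adjusted p of the 10 genes fell under 0.05 in any setting. The fold change alone did cross 1 in some settings. For example, with a pseudocount of 1 RPKM C1qc was at 0.65 and Tyrobp at 0.84, and with voom Trem2 was at 3.32. Of 106 alternative values of the fold changes of the 10 genes, 102 kept their direction and their side of the threshold, 0 passed the threshold and 4 changed sign. These were P2ry12, which ranged from -0.38 to 0.21 with single samples left out (0.21 without HE3), and Aif1, which ranged from -0.42 to 0.26 (above 0 without NC1, HE2 or HE3); the cause was not tested. Leaving out single samples gave 0 to 103 called genes over the whole table, with 103 without NC3 and 0 without any other sample, and 0 of the 10 genes in each case. The summed level of the 10 genes, HE over NC, was 5.69 to 14.6 with single samples left out, 11.7 with median-of-ratios scaling and 7.04 in RPM. Median-of-ratios scaling moved the median of all genes by less than 0.1 on the log2 scale. Samples with the same number deviated together with correlations of 0.156, 0.0869 and 0.0603, not all over 0.1, so the numbers were not taken to pair the samples, although each sample correlated best with its own number. With the replicate block 0 genes were called, and the adjusted p in limma was 0.0556 for Lyz2 and 0.0966 for C1qb, against 0.0556 to 0.502 and 0.0957 to 0.502 over all their alternatives. At few reads per sample, values of Trem2 and Aif1 are limited by depth, and 1 read more or less in NC changes the ratios of the C1q chains. The fit without the filter for voom and the filtered background of groups that do not overlap, and the counts in the lists without HE3 and without the filter, were chosen after seeing the data.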
